A study of Mus musculus with 120 samples.

Results

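The hippocampus of 26-week-old mice carrying an expanded ataxin-1 allele was compared with that of wild-type (WT) mice across all genes counted. The expanded group, labelled 175Q, carried the genotype Atxn1 175Q/2Q, in which 1 copy of the mouse's own Atxn1 gene holds the long CAG repeat and the other copy is intact. Its sample descriptions give the same mice another repeat number in the name of the line, and the labels do not say which figure was measured in them. The 4 libraries titled Hippocampus 175Q 26wk and the 4 titled Hippocampus WT 26wk were taken by their titles, which gave 8 of the 120 libraries of the series. Every library came from a different C57BL/6J mouse at 26 weeks of age, with 2 females and 2 males in each group; the labels name no treatment. The 4 hippocampi of a further genotype (175QK772T, the same repeat on an ataxin-1 whose nuclear import sequence is altered) shared the fit, so that 12 libraries gave the estimate of spread. Because the allele is a knock-in, it is expressed from its own promoter in every cell that uses Atxn1, and no cell type or promoter was selected.

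Ataxin-1 is a nuclear protein that binds the transcriptional repressor capicua, and expansion of its glutamine tract causes spinocerebellar ataxia type 1. The disease is best known for the loss of cerebellar Purkinje cells, but Atxn1 is also expressed in hippocampal neurons, and memory is affected in patients and in knock-in mice. The hippocampus is a folded sheet of excitatory neurons in which dentate granule cells project to CA3, CA3 to CA1 and CA1 to the subiculum, with CA2 between them, and each field has its own marker genes.

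The libraries held 30186577 to 53109876 counted reads, of which 4.77% to 5.67% were mitochondrial. The first principal component, with 36.7% of the variance, separated WT from 175Q, with the 175QK772T libraries between them. A pair of libraries stood apart along the second component (14.6%): Ttr, the transthyretin gene of the choroid plexus, reached 7319 CPM (CPM being the usual unit of counts relative to library size, here after TMM scaling) in 175Q replicate 2 and 2058 CPM in WT replicate 2, against 18.5 to 137 CPM in the 6 others. Counts that these 2 libraries touch were therefore repeated without both of them, which left 3 mice a group. In bulk tissue, fewer cells of a type and less RNA per cell cannot be told apart. The targeted gene itself was counted at 84.6, 73.8, 85.6 and 94.0 CPM in the 4 WT mice and at 87.6, 83.2, 99.7 and 101 CPM in the 4 175Q mice. These ranges overlapped, and the log2 fold change of Atxn1 was 0.13 ± 0.07 (SE; edgeR adjusted p = 0.127), so total Atxn1 did not pass the test. Reads of the intact and of the expanded allele were not counted separately.

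In 175Q hippocampus, 8073 of 19809 tested genes differed from WT at an adjusted p below 0.05 (edgeR quasi-likelihood test), which is 40.8% of the genes tested. Of these, 4030 (20.3%) were higher and 4043 (20.4%) were lower. Most changes were small: the median absolute log2 fold change of the called genes was 0.40. A log2 change above 1 was reached by 472 genes that rose and by 666 that fell. Above 3, the balance turned, with 75 genes that rose and 23 that fell. The genes that rose by more than 2 on the log2 scale had a median WT level of 0.0651 CPM, so that most of them were hardly detected in WT hippocampus, whereas those that fell by more than 2 had a median of 1.71 CPM. For 7288 genes (36.8% of those tested) the 4 libraries of one group all lay outside the range of the other. Members of the lists below are set against these shares of all tested genes, which are not matched to the lists for level. Of genes above 100 CPM in WT, 44.1% were lower and 19.5% higher. Of those below 1 CPM in WT, 5.71% were lower and 11.9% higher.

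The steepest rises were of homeobox genes that pattern the embryo and are normally silent in the adult forebrain. Hox genes encode transcription factors that specify position along the body axis behind the midbrain, and they lie in 4 clusters, A on chromosome 6, B on chromosome 11, C on chromosome 15 and D on chromosome 2. Of 39 Hox genes counted, 28 passed the filter on low counts and all 28 tested were higher in 175Q: 7 of 7 in cluster A, 8 of 8 in B, 8 of 8 in C and 5 of 5 in D, against 20.3% of all genes. A gene passed that filter through the 175Q libraries, so the count of those tested could hardly come out otherwise, and the remaining 11 genes were too low to test, with Hoxa11, Hoxa13 and Hoxb1 at 0 in all 175Q libraries. Summed over the 39 genes, the WT libraries held 15, 8, 10 and 7 Hox reads and the 175Q libraries 3593, 2512, 4117 and 3484. This was 0.145 to 0.282 CPM before scaling in WT and 83.2 to 87.9 CPM in 175Q, so that the groups were far apart and the 4 mutant mice were close to each other. The summed level after scaling was 79.1 CPM in 175Q replicate 2, the library rich in Ttr, and 80.8 to 85.4 CPM in the 3 others. Without both high-Ttr libraries, 29 of 29 Hox genes tested were higher.

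**Figure D1:**
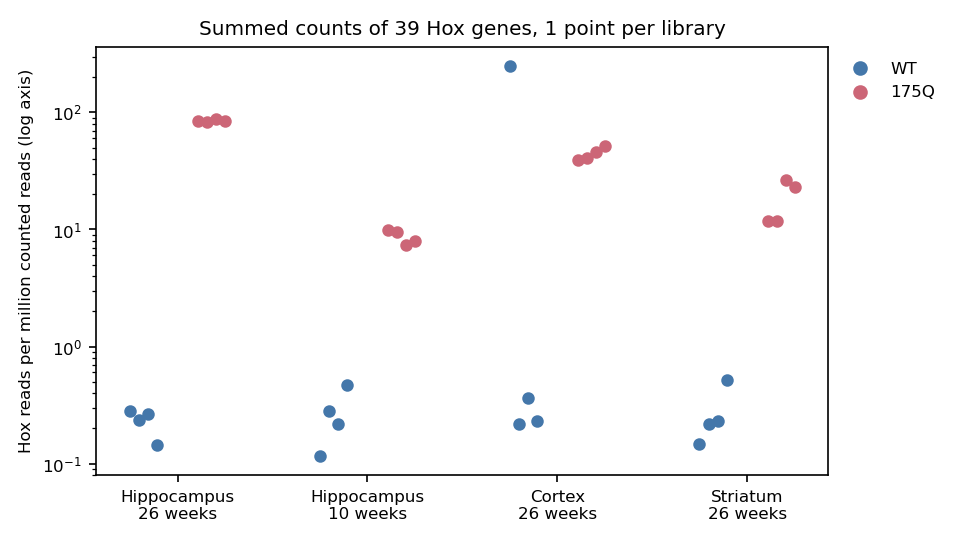
Summed counts of 39 Hox genes as CPM before scaling (log axis), 1 point per library, WT in blue and 175Q in red, for the hippocampus at 26 and 10 weeks and for the cortex and striatum at 26 weeks. In the 26-week hippocampus the WT libraries lie at 0.145 to 0.282 and the 175Q libraries at 83.2 to 87.9; the WT cortex library at 247 stands apart from the other WT libraries.

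Hoxb9, a posterior gene of cluster B, had no read in any WT library and 9.99, 12.1, 10.9 and 13 CPM in the 175Q libraries. Against a floor of 3 reads over the WT group it was at least 634-fold higher (edgeR adjusted p = 8.13e-09). Hoxa5, which patterns the neck and brachial region, likewise had no WT read and 7.46, 6.45, 7.32 and 5.73 CPM in 175Q, at least 375-fold higher. Hoxd9 (at least 244-fold), Hoxc13 (at least 241-fold) and Hoxc4 (at least 194-fold) had no WT read either, and the long non-coding Hoxaas2, whose reads may belong in part to Hoxa genes on the other strand, was at least 134-fold higher. Hoxb8 had 1 read in WT and 8.43, 6.11, 10.1 and 10.1 CPM in 175Q, and the ratio of its reads was 1476 (95% counting interval 264.5 to 58343). Hoxd8 and Hoxc6 had 3 WT reads each, with ratios of 427 (146 to 2071) and 131 (44.5 to 638). Hoxa7, counted in all 4 WT libraries at 0.0280 to 0.0984 CPM, reached 11, 10.6, 9.25 and 9.86 CPM, a log2 fold change of 7.2 ± 0.20 (adjusted p = 2.66e-11). The high libraries of each of these genes were the 4 175Q libraries, as their selection required, and no WT library came near them. Per kilobase of exon, the highest mean 175Q levels were 4.47 CPM in cluster B and 3.59 CPM in cluster A, against 2.81 CPM in D and 1.79 CPM in C. Neighbouring Hox genes overlap in the annotation (Hoxa3 with Hoxa4, Hoxa5 and Hoxa6, Hoxc5 with Hoxc6, Hoxc8, Hoxc9 and Hoxc10, Hoxd3 with Hoxd4), so the split of reads between them is uncertain.

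The RefSeq promoter windows of a pair of these genes are shown with that of C1ql2. C1ql2 had the steepest fall among called genes averaging at least 1 CPM without overlap, unnamed models left out. The windows are shown because CpG-rich promoters are where Polycomb repression and DNA methylation of developmental genes act. Each window runs from 250 bases before to 50 after the start on GRCm38.p6, 5′ to 3′ along the gene, with every CG in capitals. The Hoxa5 window is chr6:52204538-52204837 on the minus strand with 29 CG, that of Hoxb8 is chr11:96281655-96281954 on the plus strand with 13 CG, and that of C1ql2 is chr1:120340332-120340631 on the plus strand with 23 CG.
Hoxa5: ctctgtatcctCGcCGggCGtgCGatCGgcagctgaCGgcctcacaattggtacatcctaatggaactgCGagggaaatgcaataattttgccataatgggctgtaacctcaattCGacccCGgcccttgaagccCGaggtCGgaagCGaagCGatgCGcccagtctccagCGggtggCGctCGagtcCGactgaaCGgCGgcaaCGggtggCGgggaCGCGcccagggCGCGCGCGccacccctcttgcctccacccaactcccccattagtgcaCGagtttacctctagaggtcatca
Hoxb8: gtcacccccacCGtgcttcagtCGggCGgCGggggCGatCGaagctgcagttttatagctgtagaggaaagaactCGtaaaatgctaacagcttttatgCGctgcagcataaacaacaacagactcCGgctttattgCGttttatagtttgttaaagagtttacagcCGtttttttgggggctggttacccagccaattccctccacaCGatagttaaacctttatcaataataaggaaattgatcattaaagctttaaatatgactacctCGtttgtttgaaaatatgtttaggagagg
C1ql2: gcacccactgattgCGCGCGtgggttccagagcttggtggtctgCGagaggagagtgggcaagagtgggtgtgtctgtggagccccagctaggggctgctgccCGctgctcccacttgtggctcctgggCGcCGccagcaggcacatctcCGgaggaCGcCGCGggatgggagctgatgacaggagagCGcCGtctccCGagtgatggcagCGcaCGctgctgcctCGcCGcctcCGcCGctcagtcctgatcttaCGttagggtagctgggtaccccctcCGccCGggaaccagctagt
A window was found for 13116 of the 19809 tested genes. The median number of CG was 19 over those, 19 over the 15 largest rises (9 with a window), 12 over the 15 largest falls (11 with a window) and 11 over the tested Hox genes (12 with a window). The genes that rose by more than 2 on the log2 scale had a median of 15 and those that fell by more than 2 a median of 7.

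Other patterning factors rose with the Hox genes. Lbx1, a homeobox factor of the dorsal spinal cord, had 1 read in all WT libraries together. In the 4 175Q libraries Lbx1 was at 4.83, 3.27, 3.96 and 3.76 CPM, which is 665 times as many reads (95% counting interval 119 to 26298). Barx1, a homeobox gene of the pharyngeal arches, went from 2 reads to 4.41 to 5.52 CPM, and the ratio of its reads was 414 (114 to 3425). Pax2, a midbrain-hindbrain boundary factor, was at 0.138, 0.182, 0.392 and 0.216 CPM in WT and at 18.4, 15.2, 16.1 and 16.2 CPM in 175Q, a log2 fold change of 6.19 ± 0.19 (adjusted p = 7.24e-11). Its groups did not overlap, and neither did those of En1 (log2 fold change 7.27 ± 0.40), the engrailed gene of the midbrain-hindbrain boundary, or of Lhx4 (6.74 ± 0.47), a motor neuron and pituitary factor. Lack of overlap was a condition for naming En1 and Lhx4. Genes already detected in WT also rose: Tal1, a factor of blood and of midbrain GABAergic neurons, was at 2.39 to 2.74 CPM in WT and at 25.2 to 35.4 CPM in 175Q (3.53 ± 0.11). Twist1, a mesenchymal factor, rose from 0.776 to 1.01 CPM to 11.7 to 14.9 CPM (3.85 ± 0.13).

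Of the 35 developmental transcription factors listed, 32 were tested, 24 were higher and 2 lower, with a median log2 fold change of 2.58, against 20.3% higher, 20.4% lower and a median of 0.0045 over all genes. The list holds 7 Hox genes described above, all of them higher, and of its 25 other tested members 17 were higher and 2 lower (median 1.87). The 2 lower members were Twist2 (-1.19) and Irx1 (-1.24), so the rise did not extend to every gene of this class, and 6 members, among them Lhx3, Six2, Irx2, Irx5 and Msx1, did not pass the test. Without both high-Ttr libraries 25 members were higher and 2 lower. The list was chosen with Hox results of these data known, so that its count is not independent evidence of its direction. Of the Polycomb and chromatin list, 12 of 22 were higher and none lower (median 0.17). Its rises were small beside those of the transcription factors: Cbx8, a chromodomain subunit of Polycomb repressive complex 1, was at 9.64, 7.87, 9.41 and 8.19 CPM in WT and at 15.3, 16.4, 13.9 and 14.2 CPM in 175Q (0.77 ± 0.09; adjusted p = 1.15e-05). Cbx7 (0.48) and Bmi1 (0.35), further subunits of that complex, and Tet2 (0.73), which oxidises methylcytosine, were also higher. Ezh2 (0.16), the methyltransferase of Polycomb repressive complex 2, did not pass the test. When single libraries were left out, 9 to 13 members were higher and at most 1 was lower.

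The genes that mark the hippocampal fields went the other way. All 12 dentate granule cell markers were lower, with a median log2 fold change of -1.34, and so were 9 of 10 CA1 markers (median -1.10), 8 of 9 CA3 markers (-0.87) and 5 of 8 CA2 markers (-0.82), against 20.4% of all genes. None of the members of these 4 lists was higher. Some of these markers were also lower in the cortex and striatum of the same mice, as given below. Leaving out both high-Ttr libraries gave 12, 9, 7 and 5 lower. Summed, the dentate markers were at 830 to 942 CPM in WT and 366 to 422 CPM in 175Q, and those of CA1 at 1204 to 1395 CPM and 658 to 710 CPM, with no overlap in either. In WT the defining markers of every field were present.

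Among dentate genes, C1ql2, a secreted complement-like protein at mossy fibre synapses, was at 80.1, 70.5, 84.7 and 53.4 CPM in WT and at 6.79, 3.30, 2.68 and 3.55 CPM in 175Q. Its log2 fold change was -4.15 ± 0.23 (edgeR adjusted p = 1.35e-08). This was the steepest fall among called genes averaging at least 1 CPM without overlap, unnamed models left out. Lct, known as the intestinal lactase and as a marker of granule cells in mouse, was at 46.5, 44.2, 51.4 and 36.2 CPM in WT and at 3.64, 3.21, 3.36 and 1.81 CPM in 175Q (-3.88 ± 0.21). In both genes, which belong to the largest falls chosen without overlap, the lowest WT library lay far above the highest 175Q library. Dsp, the desmosome protein desmoplakin, was at 43.1 to 52.6 CPM and at 2.76 to 10.9 CPM (-3.11 ± 0.23), Plk5, a polo-like kinase of neurons, fell by 2.34 ± 0.14 and Stxbp6, a SNARE-binding protein, by 1.48 ± 0.05 on the log2 scale. Prox1, the transcription factor that fixes granule cell identity, changed less: it was at 120, 112, 113 and 88.3 CPM in WT and at 75.9, 68.1, 76.8 and 59.5 CPM in 175Q (-0.62 ± 0.10; adjusted p = 0.000135). Calb1 (-0.70), the calcium buffer calbindin, and Dock10 (-0.57) were in the same range as Prox1. Granule cell markers differed widely in how far they fell, from 5.65% of the WT level for C1ql2 to 67.2% for Dock10.

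**Figure D2:**
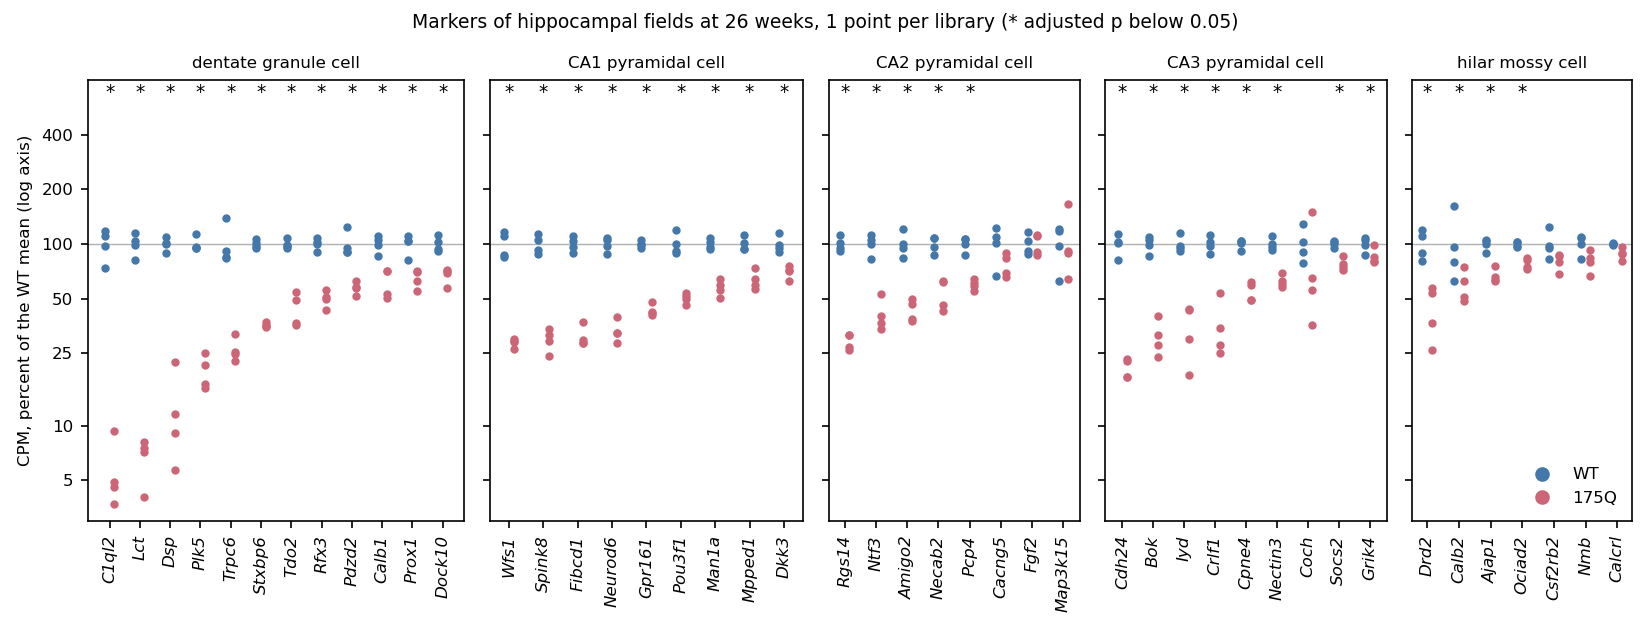
Markers of the dentate granule cells, CA1, CA2, CA3 and hilar mossy cells at 26 weeks (those reported here) as percent of the WT mean CPM (log axis), 1 point per library, WT in blue and 175Q in red, with an asterisk over genes of adjusted p below 0.05. Most 175Q points lie below the WT points, and the dentate genes C1ql2 and Lct lie lowest, at 5.65% and 6.78% of the WT level.

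In CA1, Wfs1, the endoplasmic reticulum protein wolframin, was at 125, 122, 159 and 168 CPM in WT and at 41.6, 43, 37.8 and 41.9 CPM in 175Q (-1.81 ± 0.10; adjusted p = 1.48e-08). Fibcd1 (-1.69 ± 0.10), Neurod6 (-1.59 ± 0.09), a transcription factor of pyramidal neurons, and Gpr161 (-1.21 ± 0.08), a ciliary receptor, followed it. For CA2, Rgs14, a regulator of G protein signalling that restrains plasticity there, was at 95.9, 92.8, 114 and 102.3 CPM in WT and at 32.1, 26.4, 27.6 and 31.9 CPM in 175Q (-1.78 ± 0.08). Amigo2 (-1.21), Ntf3 (-1.28), the neurotrophin NT-3, and Pcp4 (-0.74), a calmodulin regulator, were also lower, while Cacng5, Map3k15 and Fgf2 did not pass. For CA3, the cadherin Cdh24 was at 27.3, 24.3, 24.5 and 19.6 CPM in WT and at 4.47, 4.47, 5.56 and 5.45 CPM in 175Q (-2.26 ± 0.09; adjusted p = 7.27e-10). Bok (-1.69 ± 0.13), a BCL2 family member, and Cpne4 (-0.87 ± 0.07) had groups that did not overlap, whereas those of Grik4 (-0.22), the kainate receptor subunit of CA3, did overlap. Grik4 lost its call without any of 6 of the 8 libraries. Hilar mossy cell markers were lower in 4 of 7 (median -0.36), among them Drd2 (-1.18) and Ajap1 (-0.57); Calb2 (-0.73), the calretinin gene, had overlapping groups and lost its call without WT replicate 1 or 2. In the subiculum list 2 of 5 were lower and 1 higher. The higher one was Nts, the neuropeptide neurotensin, which was at 4.25, 4.54, 3.56 and 4.14 CPM in WT and at 10.6, 11, 11.2 and 13.8 CPM in 175Q (1.5 ± 0.14; adjusted p = 1.64e-06). Of the lower ones, Fn1 fell by 0.39 and Ly6g6e by 0.71, and the latter lost its call without 175Q replicate 1 or WT replicate 4.

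Genes of the excitatory postsynapse fell almost as a group. Of 21 tested members of the postsynaptic density and calcium kinase list, 19 were lower and none higher (median log2 fold change -0.77), also without both high-Ttr libraries. Camk2a, the alpha subunit of the calcium/calmodulin kinase that synaptic potentiation needs, was at 4029, 3872, 4352 and 4101 CPM in WT and at 1642, 1360, 1514 and 1473 CPM in 175Q. Its log2 fold change was -1.45 ± 0.06 (edgeR adjusted p = 4.64e-10), and all 175Q libraries lay below all WT libraries. The calcineurin subunits Ppp3ca (-0.98 ± 0.05) and Ppp3r1 (-0.71 ± 0.05), the calmodulin-binding neurogranin Nrgn (-1.05 ± 0.07) and the scaffold Homer3 (-1.76 ± 0.11) fell too. So did the 3 Shank scaffolds, by 0.63, 0.50 and 0.84 for Shank1, Shank2 and Shank3, and Dlg4 (-0.77), which encodes PSD-95. Its relative Dlg1 (0.09) and the transcription factor Creb1 (-0.10) did not pass the test. Ddn, the dendritic postsynaptic protein dendrin and no member of the list, was at 1921, 1926, 2112 and 2115 CPM in WT and at 343, 243, 268 and 318 CPM in 175Q (-2.78 ± 0.10; adjusted p = 1.43e-10).

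Of the ionotropic glutamate receptors, 12 of 17 were lower and 1 higher (median -0.23). Grin2a, the GluN2A subunit of NMDA receptors, was at 315, 337, 308 and 313 CPM in WT and at 132, 110, 130 and 122 CPM in 175Q (-1.37 ± 0.06; adjusted p = 1.77e-09). Among AMPA receptor subunits, Gria1 fell by 0.90 ± 0.06 and Gria2 by 0.17 ± 0.05, the latter call being lost without WT replicate 1, and Gria4 (-0.04) did not pass. Metabotropic glutamate receptors were lower in 6 of 7 (median -0.55). Grm2 (-1.41 ± 0.12), which is presynaptic at mossy fibres and Grm3 (-0.91 ± 0.07) fell, and Grm7 (-0.10) did not pass. Of the GABA receptor genes 10 of 14 were lower and none higher (median -0.27). Gabrd, the delta subunit of extrasynaptic receptors on granule cells, was at 35, 26.7, 37.2 and 33.8 CPM in WT and at 6.88, 6.01, 9.33 and 6.94 CPM in 175Q (-2.18 ± 0.10). Gabra5, the alpha5 subunit of CA1 tonic inhibition, was at 175 to 178 CPM and at 63.7 to 81.1 CPM (-1.33 ± 0.06). The groups of both genes were well separated.

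Ion channel genes were mostly lower. Potassium channels were lower in 27 of 33 and higher in none (median -0.41), including Kcnh3 (-1.17 ± 0.08) and Kcnh4 (-1.88 ± 0.16) of the EAG family, Kcnv1 (-0.94 ± 0.07) and Kcnn2 (-0.72 ± 0.05), the SK2 channel. Of the voltage-gated calcium and sodium channel genes 11 of 19 were lower and 5 higher (median -0.25). The 5 that rose were pore subunits: Scn1a, the NaV1.1 channel, was at 123, 120, 132 and 129 CPM in WT and at 188, 183, 190 and 165 CPM in 175Q (0.53 ± 0.05; adjusted p = 3.04e-06). Scn2a rose by 0.33 ± 0.05, Scn3a by 0.44 ± 0.06, Cacna1b by 0.29 ± 0.06 and Cacna1d by 0.21 ± 0.04. Scn8a (-0.33), also a sodium channel pore, and all 4 sodium channel beta subunits fell, with Scn4b (-2.01 ± 0.30) the furthest, and so did the T-type calcium channels Cacna1i (-0.95 ± 0.06) and Cacna1h (-0.85 ± 0.09). Calcium release and pump genes were lower in 8 of 15 and higher in 1 (median -0.27). Here the sodium-calcium exchangers moved apart, Slc8a2 falling by 1.19 ± 0.07 and Slc8a3 rising by 0.49 ± 0.08, while Slc8a1 (-0.04) did not pass. Ryr1 (-0.97), Atp2b1 (-0.66) and Atp2a2 (-0.37), a release channel, a plasma membrane pump and a reticulum pump, were lower.

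**Figure D3:**
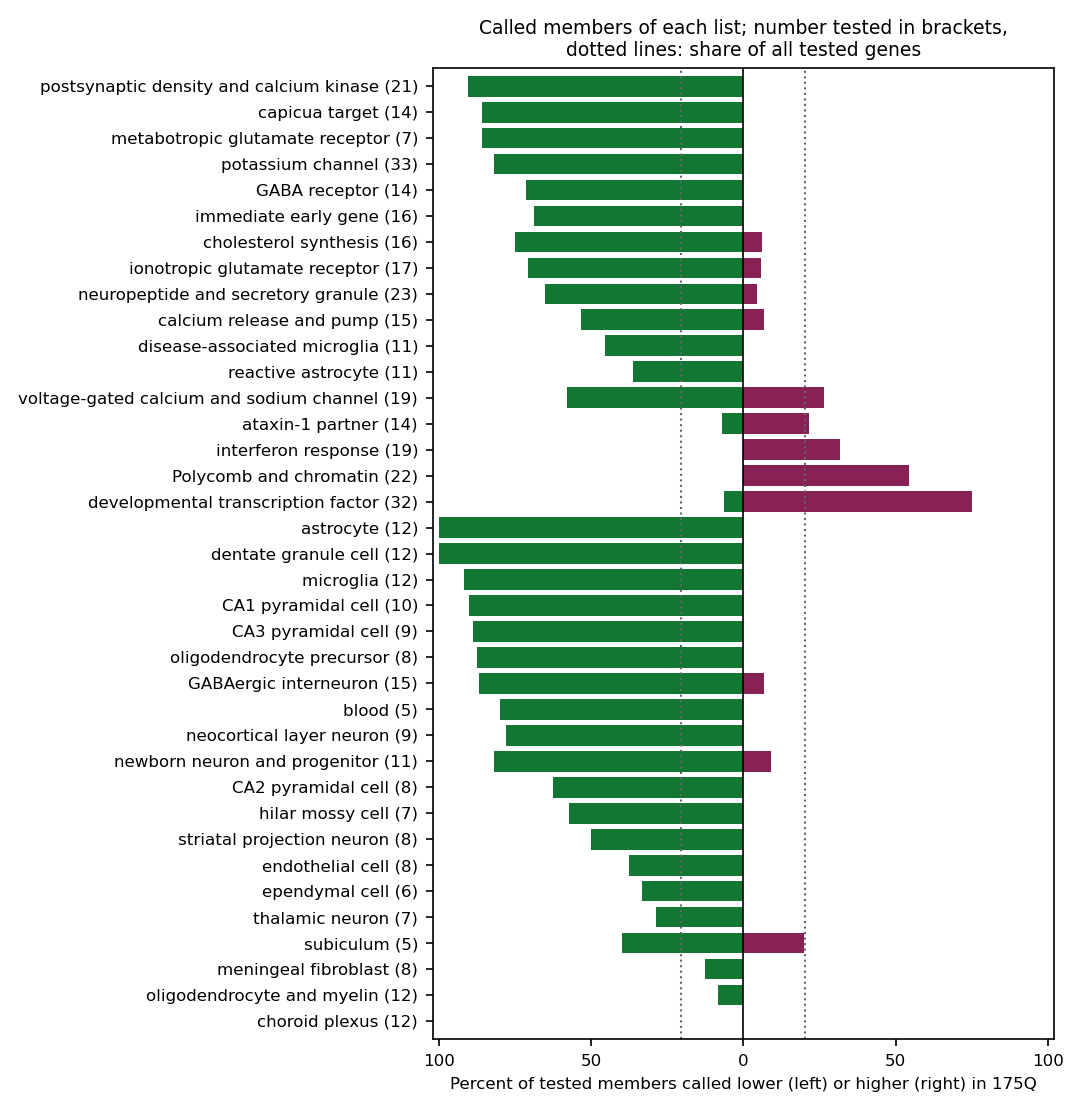
Percent of the tested members of each of 37 lists that were called lower (left, green) or higher (right, purple) in 175Q hippocampus at 26 weeks, with the number tested in brackets and dotted lines at the shares of all tested genes, 20.4% lower and 20.3% higher. Pathway lists stand above and cell type lists below; the developmental transcription factors reach 75.0% higher and the dentate granule cell and astrocyte markers 100% lower.

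Activity-dependent and peptide genes were lower as well. Of 16 tested immediate early genes 11 were lower and none higher (median -0.87). Arc, whose RNA goes to active synapses, was at 75.5, 95.6, 115 and 140 CPM in WT and at 21.8, 25.5, 23.7 and 25.3 CPM in 175Q (-2.17 ± 0.26; adjusted p = 1.45e-05). WT mice spread widely for Arc, but each lay above every 175Q mouse. Fosl2 (-1.62 ± 0.12), Egr3 (-1.29 ± 0.09) and Bdnf (-1.37 ± 0.12) were lower, whereas Fos (-0.85), Fosb (-0.51) and Npas4 (-0.58) did not pass the test. Leaving out single libraries gave 10 to 14 lower. Neuropeptide and secretory granule genes were lower in 15 of 23 and higher in 1, the neurotensin gene Nts (median -0.98). Pdyn, the precursor of the dynorphins of mossy fibres, was at 16, 13.2, 15.9 and 12.4 CPM in WT and at 3.73, 2.74, 2.36 and 2.41 CPM in 175Q (-2.35 ± 0.15). Penk, the enkephalin precursor, fell by 2.40 ± 0.26 (175Q replicate 4 at 11.8 CPM, the others at 3.96 to 4.98 CPM), and Cck fell by 1.22 ± 0.09.

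GABAergic interneuron markers were lower in 13 of 15 and higher in 1 (median -0.52). The genes for the transmitter itself fell modestly: Gad1 by 0.41 ± 0.06 and Gad2 by 0.45 ± 0.06, while the vesicular transporter Slc32a1 (-0.22) did not pass. The peptides of interneuron classes fell further. Sst was at 151, 179, 176 and 187 CPM in WT and at 65.8, 51.6, 58 and 79.6 CPM in 175Q (-1.44 ± 0.11), and Npy (-1.49 ± 0.10) and Vip (-1.14 ± 0.11) were close to it. Dlx1, a homeobox factor of interneuron development, was the member that rose (0.55 ± 0.12), and its groups did not overlap.

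The list of newborn neurons and progenitors, which in adult hippocampus belong to the dentate niche, was lower in 9 of 11 and higher in 1 (median -0.79; 7 lower and 1 higher without both high-Ttr libraries). Nes, the stem cell intermediate filament nestin, was at 14, 15.2, 14.4 and 15 CPM in WT and at 6.63, 7.36, 9.08 and 6.29 CPM in 175Q (-1 ± 0.11; adjusted p = 8.82e-06). Hopx (-0.78 ± 0.07), of quiescent stem cells, was lower too. The proliferation genes Mki67 (-0.82) and Top2a (-0.88) and the intermediate progenitor factor Eomes (-2.11) were called, but the first pair lost the call without any of 175Q replicate 1, WT replicate 3 or WT replicate 4, and Eomes without WT replicate 2. Dcx, the doublecortin of immature neurons, went the other way: it was at 35.9, 39.2, 36.3 and 49.2 CPM in WT and at 60.2, 60.4, 74.3 and 73.1 CPM in 175Q. Its log2 fold change was 0.74 ± 0.10 (adjusted p = 5.1e-05), with no overlap, and Neurod1 (-0.03), another gene of immature granule neurons, did not pass the test.

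Among glia, astrocyte markers were lower in 12 of 12 (median -0.52), also without both high-Ttr libraries. Slc1a2, the main glutamate transporter, was at 3688, 3409, 3685 and 3787 CPM in WT and at 1913, 1880, 2318 and 2194 CPM in 175Q (-0.81 ± 0.06; adjusted p = 9.8e-08). Slc1a3 (-0.63), Gja1 (-0.52), the connexin 43 gene, and Fgfr3 (-0.50) were lower, and Gfap (-0.52 ± 0.07), a gene that rises in reactive gliosis, was lower as well. The reactive astrocyte list, of which Gfap is a member, was lower in 4 of 11 and higher in none (median -0.14). Besides Gfap these were Cd44 (-1.03), S1pr3 (-0.40) and C4b (-0.14), whose call was lost without any of 5 libraries, and Vim (0.16) and Serpina3n (0.16) did not pass.

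Microglial markers were lower in 11 of 12 and the falls were small (median -0.32). C1qb, a complement subunit, was at 54, 47.1, 57.1 and 51.9 CPM in WT and at 35.3, 37.5, 37 and 37.9 CPM in 175Q (-0.51 ± 0.06), and Tmem119, a homeostatic marker, fell by 0.38 ± 0.06. Without WT replicate 1 only 7 microglial markers were lower, and P2ry12 (-0.16) and Aif1 (-0.30) were among those that single libraries decided. The disease-associated microglia list was lower in 5 of 11 and higher in none (median -0.37). Lpl (-2.09 ± 0.11), a lipase that neurons also express, fell furthest. Apoe (-0.42 ± 0.07), which is mainly an astrocyte gene, and Cd68 (-0.37) were also among the lower members. Oligodendrocyte precursor markers were lower in 7 of 8 (median -0.35), with Gpr17 (-0.75 ± 0.06), of cells committed to differentiate, C1ql1 (-0.90 ± 0.12) and Cspg4 (-0.48 ± 0.06). Of the 12 oligodendrocyte and myelin markers only Ugt8a (-0.50) was lower (median -0.13), and 6 were when no filter on low counts was applied. Mbp and Mog did not pass the test in the filtered fit.

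Markers of vessels, meninges, ventricle and blood, and of neighbouring regions, describe what else the dissections held. Over all tested genes 20.4% were lower and 20.3% higher. The shares lower were 12.5% of meningeal, 28.6% of thalamic, 33.3% of ependymal and 37.5% of endothelial markers. For lists this short these are not far from the share of all genes, so nothing is read from those counts. Endothelial markers were lower in 3 of 8 (median -0.07; Cldn5 -0.60, Ly6c1 -0.25, Flt1 -0.18) and meningeal fibroblast markers in 1 of 8 (Dcn, median -0.14; none with DESeq2). The choroid plexus list had no call in 12 (median 0.67): its summed level ran from 223 to 3483 CPM in WT and from 220 to 10823 CPM in 175Q. Without both high-Ttr libraries 1 member was higher and 1 lower, and the median was -0.325. Ependymal markers were lower in 2 of 6 (median -0.48) and in 5 without both high-Ttr libraries. Blood genes were lower in 4 of 5 (median -0.70), with summed levels of 84.2 to 161 CPM in WT and 56.3 to 74.3 CPM in 175Q, and the near-identical Hba-a1 and Hba-a2 may share reads. Striatal projection neuron genes were lower in 4 of 8 (median -0.82), at 215 to 257 CPM summed in WT and 153 to 189 CPM in 175Q, and Ppp1r1b (-0.69) did not pass, being at 73.2 CPM in 175Q replicate 2 and at 20.7 to 25.1 CPM in the 3 others. Thalamic genes were lower in 2 of 7 (Prkcd -1.49 and Cbln1 -1.08; median -0.25; 5 lower without 175Q replicate 3) and neocortical layer genes in 7 of 9 (median -0.44; Lamp5 -1.73, Ccn2 -0.91). Many of these genes are also expressed inside the hippocampus, and the part of unequal dissection in the results above was not tested.

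Capicua is the repressor that ataxin-1 binds most stably, and its best known targets are the ETS factors Etv1, Etv4 and Etv5 and the Sprouty, Spred and Dusp inhibitors of receptor tyrosine kinase signalling. Of 14 such genes 12 were lower and none higher (median -0.44; 11 lower without both high-Ttr libraries). Dusp4, a phosphatase of MAP kinases, was at 15.8, 17.6, 16.2 and 16.9 CPM in WT and at 4.70, 5.35, 5.16 and 4.08 CPM in 175Q (-1.79 ± 0.12; adjusted p = 8.08e-08). Dusp6, the ERK phosphatase, was at 45.4, 45.9, 47.5 and 49.8 CPM in WT and at 23.5, 24.2, 22.9 and 23.9 CPM in 175Q (-1 ± 0.09). Both genes separated the groups with little spread inside them. Etv4 (-1.14 ± 0.10), Etv1 (-0.73 ± 0.06), Etv5 (-0.65 ± 0.06), Ccnd1 (-0.71 ± 0.06) and Spry2 (-0.41 ± 0.07) were also lower, while Spred3 and Fxyd6 did not pass and Spry1 (-0.28) lost its call without any of 6 libraries.

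Capicua binds an octamer, searched here as TGAATGAA, TGAATGGA, TCAATGAA and TCAATGGA on both strands. The octamer was found in 2.51% of the promoter windows of tested genes, in 2.22% of those called lower, in 2.46% of those called higher and in 3 of 9 capicua target windows. The 2 windows of called targets that hold it are shown because the octamers lie close to the start of genes that fell, with the octamers in capitals. They are chr10:99262981-99263280 on the plus strand for Dusp6 and chr14:105896770-105897069 on the minus strand for Spry2, from RefSeq on GRCm38.p6.
Dusp6: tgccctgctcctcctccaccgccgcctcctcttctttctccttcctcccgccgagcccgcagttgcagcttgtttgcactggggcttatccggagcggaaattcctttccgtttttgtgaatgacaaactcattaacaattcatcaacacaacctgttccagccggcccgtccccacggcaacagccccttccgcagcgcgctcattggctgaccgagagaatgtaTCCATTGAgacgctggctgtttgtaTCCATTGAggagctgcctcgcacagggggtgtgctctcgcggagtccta
Spry2: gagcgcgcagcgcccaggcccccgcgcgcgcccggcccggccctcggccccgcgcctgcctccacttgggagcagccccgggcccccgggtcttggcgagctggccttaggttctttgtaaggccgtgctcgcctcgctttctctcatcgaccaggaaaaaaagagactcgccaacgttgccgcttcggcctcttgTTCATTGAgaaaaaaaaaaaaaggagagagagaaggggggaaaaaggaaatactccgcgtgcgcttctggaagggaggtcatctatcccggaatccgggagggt
Counted from the first base of the window, the matches begin at bases 227 and 252 for Dusp6 and at base 197 for Spry2. The third window with a match was that of Spred3, whose RNA did not pass the test.

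The partners of ataxin-1 changed little at the RNA level (median 0.02). Of 14 tested, 3 were higher (21.4%, near the 20.3% of all genes) and 1 lower (7.14%, against 20.4% of all genes). Hdac3 (0.28 ± 0.04), a corepressor, Usp7 (0.16 ± 0.04), a deubiquitinase, and the paralog Atxn1l (0.16 ± 0.04) rose, Anp32a (-0.31 ± 0.05) fell, and Cic (-0.07), which encodes capicua, did not pass the test. Cholesterol synthesis genes were lower in 12 of 16 and higher in 1 (median -0.34). Msmo1 was at 88.5, 89.4, 87.2 and 93.3 CPM in WT and at 59.9, 65.1, 65 and 63.3 CPM in 175Q (-0.50 ± 0.05), Dhcr7 fell by 0.41 and Srebf2, the master regulator, by 0.36, while Lss rose by 0.30 ± 0.07. Interferon response genes were higher in 6 of 19 (31.6%, against 20.3% of all genes) and lower in none (median 0.30). Only 3 were higher without 175Q replicate 2, the library of highest Ttr, and 2 without both high-Ttr libraries (median 0.11). Xaf1, at 8.87, 8.36, 9.13 and 5.99 CPM in WT and 12.5, 14.4, 13.4 and 12.2 CPM in 175Q, kept its call when any library was left out (0.70 ± 0.11; adjusted p = 0.00021). Irf7 (0.65 ± 0.20), with overlapping groups, lost it without 175Q replicate 1.

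Among the 15 largest falls that the naming rule kept, all of at least 1 CPM, several are outside the lists. Ankrd63 was at 17.5, 18.7, 19.8 and 24.4 CPM in WT and at 0.898, 0.692, 0.892 and 2.25 CPM in 175Q (-4.09 ± 0.27). Dio3, the deiodinase that inactivates thyroid hormone, fell by 4.05 ± 0.42 and Tnfrsf25, the death receptor DR3, by 4.02 ± 0.27. Rasd1, a Ras-like protein induced by glucocorticoids, fell by 2.91 ± 0.18 and Lefty1, an inhibitor of Nodal signalling, by 2.63 ± 0.15. All 4 175Q libraries of each were below all 4 WT libraries, which was a condition of their selection and not a result. The others were Dgat2l6 (-3.88), Cldn22 (-3.60), Pla2g2f (-3.26), Lrrc10b (-3.22), Olfr539 (-2.92) and Cox6a2 (-2.59), besides C1ql2, Lct, Dsp and Ddn above. The share of genes called rose with level: 17.6% below 1 CPM in WT and 63.6% above 100 CPM, where 44.1% were lower and 19.5% higher. Protein-coding genes were called in 46.1%, long non-coding genes in 27.2% and pseudogenes in 12.7%. Within 10 Mb of Atxn1 on chromosome 13, where a knock-in can carry flanking sequence of another strain, 45.1% of 173 tested genes were called (exact binomial 95% interval 37.5% to 52.8%, for counting error only), against 40.8% of all.

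At 10 weeks the same comparison in 4 other WT and 4 other 175Q mice called 4132 of 21071 genes (19.6%), of which 2046 (9.71%) were higher and 2086 (9.9%) lower. Both ages shared 3189 genes called in the same direction, which is 39.5% of the calls at 26 weeks and 77.2% of those at 10 weeks, and 22 were called in opposite directions. Age and sequencing batch are the same split here, so levels are not compared between the ages, but the 175Q effect within each age was. It differed between the ages for 2163 of 21806 genes (9.92%; interaction test in edgeR): 1391 (6.38%) had a more negative log2 fold change at 26 weeks, and 3.54% of the genes tested a more positive one. With size factors by the RLE method in place of TMM the split was 1003 more positive and 1143 more negative. Without 175Q replicate 2 of 26 weeks it was 1121 more positive and 972 more negative, the 1 fit of those run in which more effects were more positive. Of the genes called higher at 26 weeks 731 had a more positive effect then, and of those called lower 1246 had a more negative one.

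Lrrtm1, a synaptic adhesion protein, fell by 0.97 ± 0.05 at 26 weeks and by 0.24 ± 0.03 at 10 weeks on the log2 scale, a difference of -0.74 ± 0.07 (adjusted p = 8.91e-07). Ddn fell by 2.78 at 26 weeks and by 1.53 at 10 weeks, and the difference was -1.27 ± 0.11. Sowaha (-1), Mmp17 (-0.87) and Rab15 (-0.69), named by the same rule, differed likewise. In the lists, a more negative effect at 26 weeks was found for 5 of 12 dentate markers, 5 of 10 of CA1, 3 of 8 of CA2 and 4 of 9 of CA3. It was also found for 14 of 22 postsynaptic density genes, 8 of 14 capicua targets, 6 of 17 immediate early genes, 6 of 11 genes of newborn neurons, 5 of 12 astrocyte and 5 of 12 microglial markers, against 6.38% of all genes. Camk2a had a log2 fold change of -0.77 ± 0.06 at 10 weeks and -1.45 at 26 weeks (difference -0.70 ± 0.09; adjusted p = 5.59e-05). C1ql2 had -1.92 ± 0.10 and -4.15 (difference -2.24 ± 0.25), and Dusp6 had -0.27 ± 0.07 and -1 (difference -0.74 ± 0.11). Plk5, at -2.96 ± 0.13 and -2.34, and Wfs1, at -1.61 ± 0.11 and -1.81, were already low at 10 weeks, and their differences did not pass the test.

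**Figure D4:**
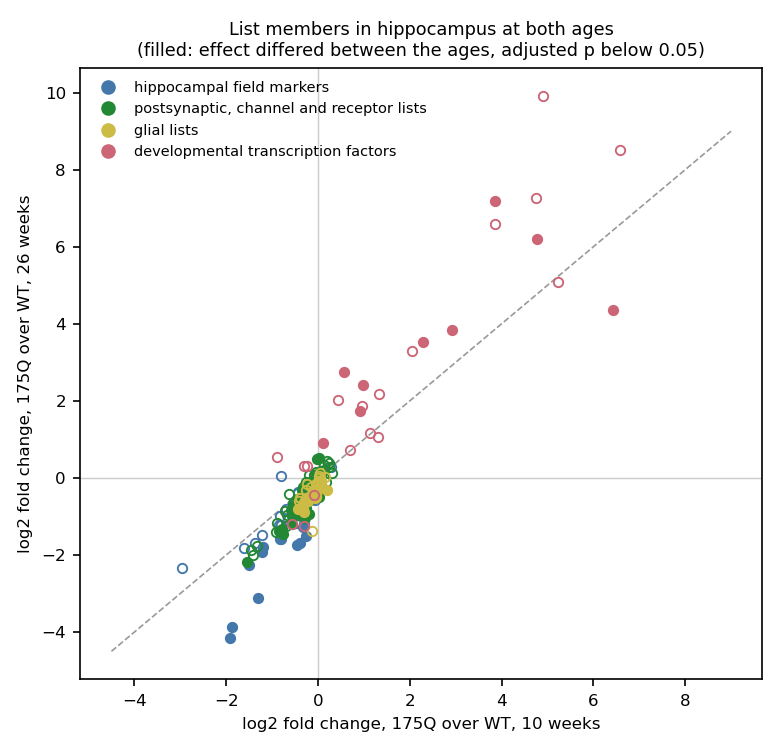
Log2 fold change of 175Q over WT in hippocampus at 10 weeks (horizontal) and at 26 weeks (vertical), 1 point per list member counted in WT at both ages, coloured by list group, with the line of equal effects dashed and points filled where the effect differed between the ages. Nearly all filled blue, green and yellow points (field markers, synaptic and channel lists, glial lists) lie below the line, as for C1ql2 at -1.92 and -4.15, and most filled red points (developmental transcription factors) lie above it, as for Tal1 at 2.28 and 3.53; Pou4f1, at 6.42 and 4.36, lies below.

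The Hox genes were also higher at 10 weeks, in 15 of 16 tested (against 9.71% of all genes), but most of these genes passed the filter through the 175Q libraries, so nothing is read from that count. The summed counts were 0.117 to 0.468 CPM in WT and 7.42 to 9.9 CPM in 175Q. The interaction called 1 of 29 as more positive at 26 weeks, Hoxa7 (difference 3.40 ± 0.55; adjusted p = 0.000397), and for genes with no WT read at 26 weeks the difference could not be estimated. Of the developmental transcription factors 8 of 33, Hoxa7 among them, had a more positive effect at 26 weeks (against 3.54%). En2 went from 0.56 ± 0.15 to 2.75 (difference 2.17 ± 0.24), Tal1 from 2.28 ± 0.14 to 3.53 (1.23 ± 0.18) and Pax2 from 4.77 ± 0.30 to 6.19 (1.41 ± 0.41). Pou4f1, a factor of sensory neurons, was the 1 with a more negative effect, from 6.42 ± 0.32 to 4.36.

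The cortex and striatum of the same mice at 26 weeks give the regional setting. In the cortex, WT replicate 1 stood apart with 9286 Hox reads (247 CPM), where the other 3 WT libraries held 0.216 to 0.366 CPM and the 175Q libraries 39.6 to 51.8 CPM. With it, 7 of 23 Hox genes tested were higher in 175Q cortex and 568 of 20858 genes (2.72%) had an effect that differed between hippocampus and cortex. The 5 leading differences of that fit were those of Hoxa5, Hoxb2, Hoxaas2 and Hoxc4, whose sizes could not be estimated because they had no WT read in hippocampus, and Pkp2 (-1.54 ± 0.13), a plakophilin. Without that mouse, 24 of 24 Hox genes tested were higher in cortex (against 22.4% of genes higher and 22.4% lower), where they passed the filter through the 175Q libraries. In that fit 1579 of 21127 genes (7.47%) differed between the regions, and none of 29 Hox genes was among them. For Hox genes with no WT read in hippocampus the difference could not be estimated, so equal effects are not read from this. Of the 1579, 724 (3.43%) had a more positive and 855 (4.05%) a more negative effect in hippocampus. Dentate markers were more negative in hippocampus in 6 of 12 and CA3 markers in 6 of 9, and potassium channels more positive in 8 of 33. Of the 35 developmental transcription factors listed, 7 had a more negative effect in hippocampus and none a more positive one. In cortex without that mouse, 24 of them were higher and 1 lower. Their median over those tested was 4.49 there and 2.58 in hippocampus. In cortex itself, without that mouse, 9 dentate markers were lower and 2 higher (median -0.45). Of CA1 markers 7 were lower there and 1 higher (-0.51), of CA2 markers 3 lower and none higher (-0.32), and of CA3 markers 5 lower and none higher (-0.17). Without the mouse, the leading differences were those of Rgs4 (-0.68 ± 0.07 in hippocampus and -2.06 ± 0.07 in cortex), a regulator of G protein signalling, Arpp19 (-0.57 and -1.95) and Pdp1 (-0.13 and -1.53), with larger falls in cortex. Lhx9 (0.37 and 4.00) rose further in cortex, and Cpne6 fell by 0.52 in hippocampus and was higher by 0.87 in cortex.

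Against striatum, the effect differed for 3234 of 20806 genes (15.5%), with 1910 (9.18%) more positive and 1324 (6.36%) more negative in hippocampus. That excess shrank to 1 gene or turned when any 1 WT mouse was left out: the split was then 1296 and 1300 without WT replicate 1, 1196 and 1195 without replicate 2, 1694 and 1999 without replicate 3, and 1346 and 1471 without replicate 4. With RLE scaling it was 1729 and 1537. In striatum itself 22.7% of genes were higher and 22.6% lower, and 13 of 13 Hox genes tested were higher, again having passed the filter through the 175Q libraries, with summed counts of 0.148 to 0.514 CPM in WT and 11.7 to 26.6 CPM in 175Q. No Hox difference was called among 28 tested between these regions. For Hox genes with no WT read in hippocampus the difference could not be estimated, so equal effects are not read from this. The summed counts in 175Q hippocampus were 83.2 to 87.9 CPM before scaling. Of the 35 developmental transcription factors listed, 23 were higher and 1 lower in striatum. Their median over those tested was 4.64 there and 2.58 in hippocampus. The effect was more negative in hippocampus for 5 of them and more positive for 2. The striatal projection neuron genes were lower in 8 of 8 in striatum (median -2.98) and more negative there in 8 of 8. Some hippocampal field markers fell in striatum too: 5 dentate markers were lower and none higher (median -0.39), and 4 CA1 markers lower and 1 higher (-0.77). Of CA2 markers 5 were lower and none higher (-0.53), and of CA3 markers 4 lower and 1 higher (-0.41). Hrh3 (-0.78 ± 0.10 in hippocampus and -3.38 ± 0.13 in striatum), a histamine receptor, Rgs4 (-0.68 and -3.56), Arpp19 (-0.57 and -3.03) and Pmepa1 (-0.66 and -2.09) fell further in striatum. Adcy5, the striatal adenylyl cyclase, was at -0.18 ± 0.07 and -2.59 ± 0.13. In the other direction, 7 of 12 dentate markers were more negative in hippocampus: C1ql2 had a log2 fold change of -4.15 there and of 0.59 in striatum, where it did not pass the test (difference -4.81 ± 0.44; adjusted p = 1.1e-05). Homer3, at -1.76 in hippocampus and -0.08 in striatum (difference -1.65 ± 0.17), did not pass in striatum either. Its list went mostly the other way. Of 22 postsynaptic density genes, 12 had a more positive effect in hippocampus and 1 a more negative one. The median of the list was -0.98 in striatum and -0.77 in hippocampus.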

How the data were processed

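RNA was sequenced from hippocampus as poly(A) libraries read as 150-base pairs, per the labels' protocols, in 1 batch per age. The deposited values are raw read counts per gene, made by the authors with bcl2fastq 2.20.0, Trimmomatic 0.33, HISAT2 2.1.0 and featureCounts of Subread 1.6.2 on GRCm38, per the submitters' processing notes. Strand and quality settings of the 26-week counting are not given in the sources used here, so overlapping and antisense genes are uncertain.

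Counts were kept by filterByExpr, scaled by TMM and tested with edgeR 4.0.16 (R 4.3.3; quasi-likelihood test, genotype and sex, 12 libraries of 3 genotypes) with Benjamini-Hochberg adjustment over all tested genes; a call is an adjusted p below 0.05. CPM are TMM-scaled, ± is a standard error, and a fold against a WT group at 0 uses 3 counts over the group. Effects were compared between ages and regions by interaction terms, with mouse as a block between regions. Replicates are different mice by the numbers in their labels. The p-values set a difference against the spread between mice, which in the main comparison was estimated over the 12 libraries of 3 genotypes. Depth was 30186577 to 53109876 counts a library, and counting intervals (95%) cover counting error only.

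Genes named by rule are Atxn1, the 15 largest rises and falls among called genes of at least 1 CPM without overlap (leaving out Y-linked genes, Xist, Tsix and unnamed models), up to 4 called members of smallest p from each list, all field markers, and up to 5 genes per interaction. Other list members are named to show exceptions or relatives and were chosen after their values were seen. The members and the 37 lists were chosen with earlier results of these data known. Promoter windows are RefSeq's. Alternatives were DESeq2 1.42.0, RLE scaling, no filter, no sex term, 8 libraries, a replicate block, single libraries left out and, chosen after seeing the data, both high-Ttr libraries and the cortex WT replicate 1 mouse left out. Some genes are not reported here by name; they remain in the counts, medians and summed levels of their lists.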

Additional observations from a re-analysis of the deposited data

Results flagged for a closer look

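Among 152 named genes, 21 of 304 groups of 4 libraries held 1 library far from the 3 others; the criterion, a 95% critical value, passes about 1 group in 20 by chance. For 4 genes the far value was 1 WT library with reads where the 3 others had none: Hoxb8 at 0.0303 CPM in WT replicate 2, Lbx1 at 0.028 CPM in WT replicate 3, Hoxd8 at 0.0646 CPM in WT replicate 4, Barx1 at 0.056 CPM in WT replicate 3. These rest on 1, 1, 3 and 2 reads. Any read passes the criterion when the 3 others have none, so the rate of 1 in 20 does not apply to them. Among WT libraries, Lhx4 stood at 0.242 CPM in replicate 2 and at 0 to 0.0197 CPM in the others, Dgat2l6 stood at 2.12 CPM in replicate 1 and at 1.79 to 1.85 CPM in the others, Plk5 stood at 35.3 CPM in replicate 1 and at 29.6 to 30.1 CPM in the others. Cspg4 stood at 29.8 CPM in replicate 2 and at 27.9 to 28 CPM in the others, C1ql1 stood at 8.26 CPM in replicate 3 and at 6.87 to 7.04 CPM in the others, Gabra2 stood at 130 CPM in replicate 1 and at 105 to 109 CPM in the others. Cd68 stood at 10.8 CPM in replicate 4 and at 9.42 to 9.57 CPM in the others, Cbx7 stood at 86.8 CPM in replicate 3 and at 77.3 to 78.3 CPM in the others. Among 175Q libraries, Ankrd63 stood at 2.25 CPM in replicate 4 and at 0.692 to 0.898 CPM in the others, Olfr539 stood at 0.162 CPM in replicate 4 and at 0.506 to 0.539 CPM in the others, Fibcd1 stood at 46.7 CPM in replicate 4 and at 35.9 to 37.5 CPM in the others. Gpr161 stood at 30.3 CPM in replicate 4 and at 25.7 to 26.4 CPM in the others, Fgfr3 stood at 105 CPM in replicate 1 and at 96.2 to 97.6 CPM in the others. Tmem212 stood at 2.05 CPM in replicate 2 and at 0.812 to 0.921 CPM in the others, Penk stood at 11.8 CPM in replicate 4 and at 3.96 to 4.98 CPM in the others, Egr3 stood at 45.1 CPM in replicate 1 and at 33.4 to 35.3 CPM in the others. Cd44 stood at 4.5 CPM in replicate 2 and at 2.49 to 2.67 CPM in the others. 

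The 175Q effect differed by an interaction test for 2163 genes between 26 and 10 weeks, for 568 between hippocampus and cortex (1579 without the mouse of WT replicate 1) and for 3234 between hippocampus and striatum. As the difference of log2 fold changes, hippocampus at 26 weeks minus the other set, the values against 10 weeks were -0.743 for Lrrtm1, -1.27 for Ddn, -1 for Sowaha, -0.873 for Mmp17, -0.691 for Rab15. The value against cortex was -1.54 for Pkp2. The values against cortex without that mouse were 1.35 for Arpp19, 1.37 for Pdp1, 1.34 for Rgs4, -3.58 for Lhx9, -1.43 for Cpne6. The values against striatum were 2.62 for Hrh3, 2.89 for Rgs4, 2.41 for Adcy5, 2.48 for Arpp19, 1.45 for Pmepa1.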

How the results depend on the processing

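The 8073 calls in 26-week hippocampus numbered 8110 with DESeq2, 8241 without a filter, 7242 with only 8 libraries and 7183 to 7948 with single libraries left out. Of the called genes, 6024 (74.6%) were called in all 8 of those left-out fits. Of 339 called list members and named genes, every one kept its sign in those fits and 38 lost the call without at least 1 library; 31 lost it under another alternative, mostly without both high-Ttr libraries. Among 465 values of Atxn1 and the largest rises and falls under alternatives 463 kept their call, and Atxn1 passed the threshold in the other 2. The rises and falls were chosen as the largest called changes without overlap, so they had little room to lose a call. The age interaction gave 1550 to 2414 genes and the striatum interaction 2391 to 3693 with single libraries left out, against 2163 and 3234. The cortex interaction (568) was the least stable, at 273 to 1579: it gave 347, 273 and 327 without 175Q replicate 2, 3 or 4 and 1579 without WT replicate 1; the cause was not tested. The share called near Atxn1 (45.1%) was 38.6% within 5 Mb and 40.3% within 20 Mb.

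Replicate numbers were not taken to pair the mice, since the labels tie them to nothing shared and 1 of the 4 same-number correlations of deviations from group means was not positive (-0.063, 0.40, 0.19 and 0.16). WT replicates 2, 3 and 4 matched their own number best, at most a hint from the data, and WT replicate 1 matched 175Q replicate 3. These deviations were not adjusted for sex or Ttr. Both replicate 2 libraries were male and rich in Ttr, and WT replicates 1 and 3 and 175Q replicate 3 were female. The part of sex and Ttr in the matches was not tested. With a replicate block the calls were 8210 in hippocampus, 1886 for age, 635 for cortex and 2956 for striatum. Depth limits genes at a few reads, such as Hox genes in WT, whose folds are bounds or have wide intervals.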

Other observations

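Some genes that are well detected in WT hippocampus also rose, chosen here after their values were seen. Onecut2, a cut-homeobox factor, was at 17.3 CPM on average in WT and 5.00 times as high in 175Q (edgeR adjusted p = 7.42e-13). Lin28b, which blocks let-7 maturation in early development, was at 5.67, 4.54, 4.62 and 7.56 CPM in WT and at 21.6, 20.7, 23.5 and 24.6 CPM in 175Q. Sfmbt2, a Polycomb group gene, was 3.06 times as high, Eif2ak2, the double-stranded RNA kinase PKR, 2.55 times and the imprinted gene Peg3 1.91 times. They were picked among genes called higher without overlap, so that all 175Q libraries lay above all WT libraries by choice.

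On the X chromosome 654 genes were tested and 44.5% were called, with 32.3% higher and 12.2% lower, whereas over all genes the shares were 20.3% and 20.4%. Both groups held 2 females and 2 males.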
